A study of Homo sapiens with 24 samples.

Results

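The genes described here are 10 components of the endoplasmic reticulum (ER) folding machinery and of the signalling that adjusts it, chosen by gene name among 20045 genes annotated on the array: HSPA5, HSP90B1, CALR, PDIA4, DNAJB9, HERPUD1, XBP1, ATF6, EDEM1 and SEL1L. They were read in SKNMC, TC32, TC71 and RDES, 4 established human lines of Ewing sarcoma, a tumour of bone or soft tissue that usually carries a fusion of EWSR1 with an ETS factor. Each line was grown for 24 h with 5 nM pladienolide B (PlaB), a small molecule that blocks splicing by binding SF3b, a spliceosome complex that recognises the branch site, or with 0.1% DMSO, and the sample labels call the DMSO cells vehicle controls while the treatment protocol speaks of untreated cells. Total RNA went onto Illumina expression beadchips, with 3 arrays in each of the 8 groups of line and treatment, and each line stands for 1 tumour. Of the 10 genes, 9 had a probe annotated to them, and XBP1 had 2 such probes, which gives 10 member probes among 47323 on the array. HERPUD1 had no annotated probe in the table used here and was not analysed. All 10 member probes passed the detection filter, along with 17557 probes in all that covered 10882 genes.

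Proteins that enter the ER are folded there by chaperones, foremost the HSP70-type BiP (HSPA5), and by disulfide isomerases and lectins that hold glycoproteins until they are folded. When unfolded proteins build up, the membrane sensors IRE1, ATF6 and PERK are activated. IRE1 splices XBP1 mRNA in the cytoplasm, without the spliceosome, and the XBP1 and ATF6 proteins then bind elements in the promoters of chaperone and degradation genes, while PERK lowers translation and induces ATF4 and CHOP. Proteins that do not fold are sent back to the cytosol and destroyed, a route called ER-associated degradation.

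ATF6 and XBP1 are known to act at promoters of chaperone and degradation genes, so the elements found in the promoters of the members are shown first. The window was 250 bases before to 50 after each start in RefSeq (GRCh38.p14), where 10 of 10 members were listed, and 3 motifs were searched on both strands. They were the ER stress response element ERSE (CCAAT, 9 bases of any kind, CCACG), ERSE-II (ATTGG, 1 base, CCACG) and the XBP1-preferred element UPRE (TGACGTGG). Among the 35116 promoters of the table, 0.0769% held an ERSE, 0.0541% an ERSE-II and 0.729% a UPRE. The members held 6 matches, none overlapping another. Each is printed 5′ to 3′ on the strand that carries it, with 12 bases on both sides and the element in capitals, because the response of the 4 measured genes among these 5 is set beside that of other carriers further on.
HSPA5 ERSE: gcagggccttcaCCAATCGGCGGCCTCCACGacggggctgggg
HSP90B1 distal ERSE: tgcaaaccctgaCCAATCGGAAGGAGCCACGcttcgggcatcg
HSP90B1 proximal ERSE: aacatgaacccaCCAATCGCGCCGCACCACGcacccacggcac
CALR ERSE: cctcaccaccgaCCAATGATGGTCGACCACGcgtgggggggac
XBP1 ERSE: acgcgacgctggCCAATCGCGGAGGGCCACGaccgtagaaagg
HERPUD1 ERSE-II: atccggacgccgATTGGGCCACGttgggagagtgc

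The printed HSPA5 stretch is chr9:125241379-125241421 on the minus strand, and its element begins 66 bases before the start. The distal HSP90B1 stretch is chr12:103930204-103930246 on the plus strand, and its element begins 194 bases before the start. The proximal stretch is chr12:103930309-103930351, where the element lies on the minus strand, opposite to the gene. The base of that element farthest from the start is 89 bases before it. In CALR the element is also on the strand opposite to the gene, at chr19:12938372-12938414 on the minus strand. Its base farthest from the start is 225 bases before it. XBP1 has 2 listed starts, and the element precedes 1 of them by 52 bases, at chr22:28800591-28800633 on the minus strand. The HERPUD1 element is 117 bases before the start, at chr16:56932013-56932047 on the plus strand. No exact match to the 3 motifs was in the windows of DNAJB9, PDIA4, ATF6, EDEM1 or SEL1L. To let a member that fell in every line and one that rose in every line be compared, the 250 bases before the start of HSPA5 (chr9:125241344-125241593, minus strand) and of DNAJB9 (chr7:108569624-108569873, plus strand) follow, with the ERSE in capitals.
HSPA5 upstream: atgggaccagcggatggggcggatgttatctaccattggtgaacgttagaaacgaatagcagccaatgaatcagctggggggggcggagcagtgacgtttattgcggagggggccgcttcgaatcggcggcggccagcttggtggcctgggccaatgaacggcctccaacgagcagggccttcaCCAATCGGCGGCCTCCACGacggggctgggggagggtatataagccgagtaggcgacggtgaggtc
DNAJB9 upstream: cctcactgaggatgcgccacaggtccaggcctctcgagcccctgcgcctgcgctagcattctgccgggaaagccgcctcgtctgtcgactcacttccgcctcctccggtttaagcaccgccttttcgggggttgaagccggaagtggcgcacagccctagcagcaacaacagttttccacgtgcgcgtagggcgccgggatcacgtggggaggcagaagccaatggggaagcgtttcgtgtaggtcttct

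Arrays detected 29.2% to 39.6% of their probes, and arrays of a group correlated at 0.987 to 0.994 across probes. In every line but TC71 each PlaB array detected fewer probes than each vehicle array, and in TC71 the ranges overlapped. The Ewing sarcoma markers CD99, NKX2-2, PRKCB, CCND1, STEAP1 and STEAP2, 6 of 6, were detected on all 24 arrays, with a summed background-corrected intensity of 4774 to 5620 with vehicle and 2783 to 4423 with PlaB. The summed levels with vehicle and with PlaB were 117 to 159 and 113 to 207 for 6 epithelial markers, 106 to 194 and 111 to 288 for 5 blood markers, and 88.8 to 103 and 94.0 to 132 for 5 endothelial markers. They were 95.7 to 130 and 99.2 to 129 for 5 markers of secretory plasma cells, a cell type with a large ER, and these sums include the offset of 16 for each gene. CDH5 and KDR were detected on no array, and PTPRC and CD3E on 1 each, but others of these lists were detected on more arrays and rose in the mean of the lines: CD14 (22 arrays, 0.90, adjusted p = 1.9e-13), CD79A (21 arrays, 0.27, adjusted p = 0.00053), KRT18 (20 arrays, 0.26, adjusted p = 0.0024) and ESAM (11 arrays, 0.94, adjusted p = 9.8e-15). The part of the falling detection and of these marker shifts in the results below was not tested. The labels do not say whether the 3 samples of a group came from separate cultures, so the p-values cover the spread among them alone, and that spread may be technical. Also, a lower level in bulk RNA cannot be told apart as fewer expressing cells or less RNA per cell.

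Levels below are background-corrected, quantile-normalized log2 intensities of 1 probe, comparable between samples of that probe but not between probes. Differences are PlaB minus vehicle on that log2 scale ± SE, from limma, and a gene rose or fell where the Benjamini-Hochberg adjusted p over all 17557 probes was under 0.05. In the mean of the 4 lines the chaperones HSPA5, HSP90B1 and CALR and both XBP1 probes fell, while the BiP co-chaperone DNAJB9 rose. PDIA4, ATF6, EDEM1 and SEL1L did not pass in that mean. So 6 of the 10 member probes were called, 1 up and 5 down, where 65.6% of all tested probes were called, 30.9% up and 34.7% down. The share of called members was thus near that of the array as a whole, and the median difference was -0.11 over the members and -0.02 over all probes.

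**Figure D1:**
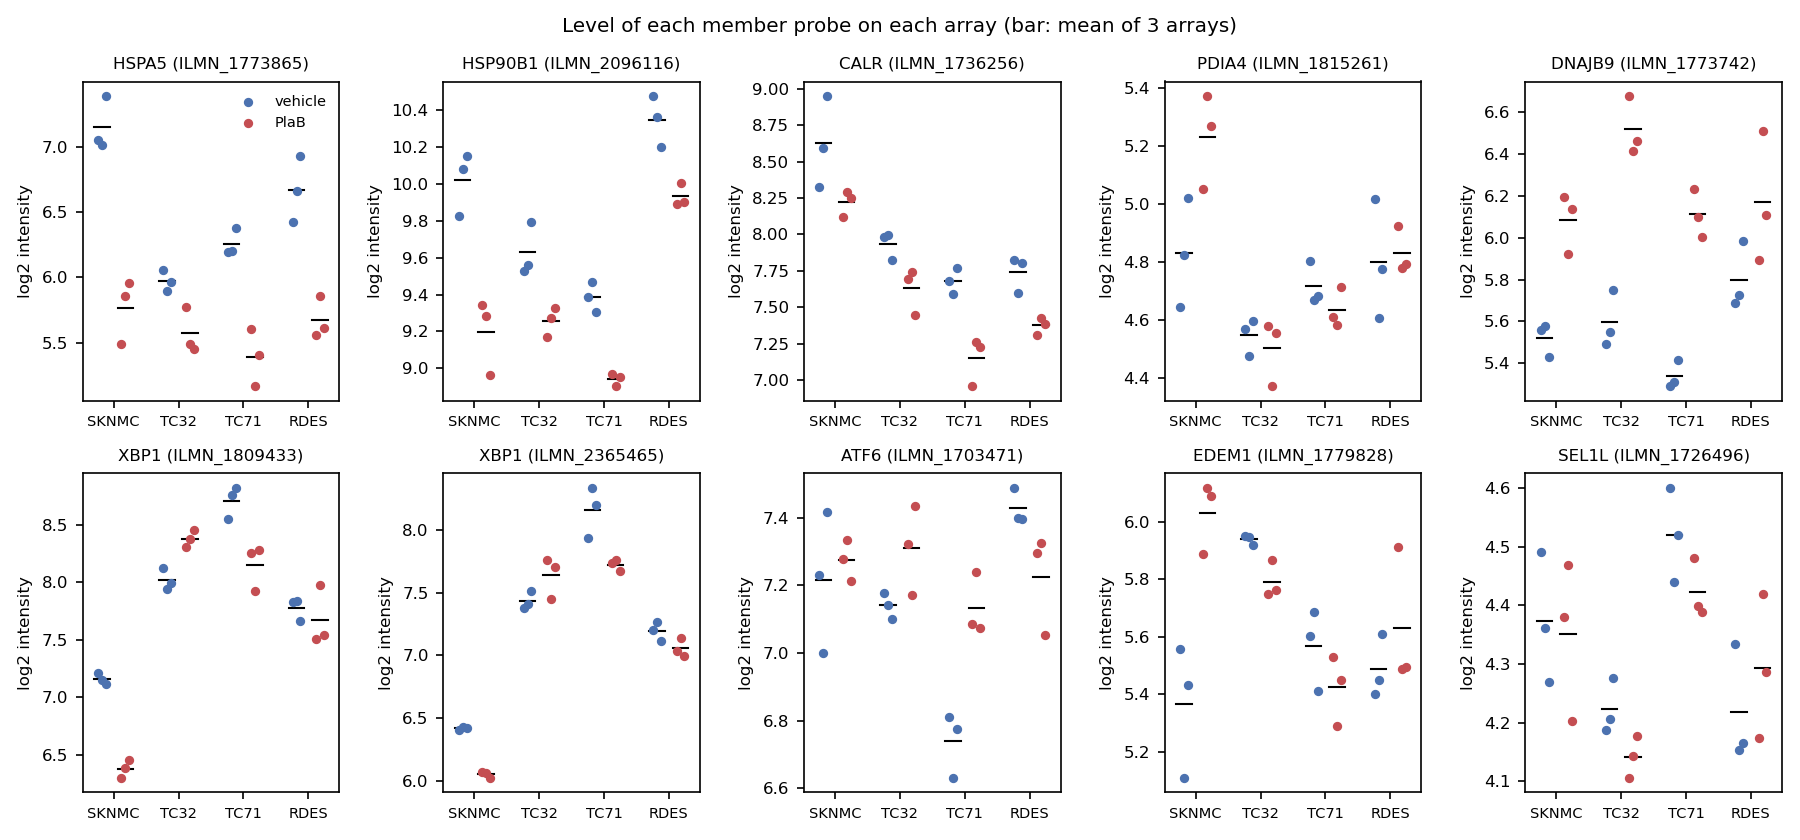
Level of each member probe on each of the 24 arrays (y axis, log2 intensity, scaled per panel), by cell line (x axis) and treatment, where points are arrays and bars the mean of 3. In SKNMC the HSPA5 points fall from 7.01 to 7.39 with vehicle to 5.49 to 5.95 with PlaB, while in TC32 the DNAJB9 points rise from 5.49 to 5.75 to 6.41 to 6.68.

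HSPA5 encodes BiP, the central ER chaperone, which also holds the stress sensors inactive. In SKNMC its level was 7.05, 7.01 and 7.39 on the vehicle arrays and 5.49, 5.86 and 5.95 on the PlaB arrays. In TC32 it was 6.05, 5.90 and 5.97 with vehicle against 5.78, 5.49 and 5.45 with PlaB. In TC71 the levels were 6.19, 6.20 and 6.37 against 5.61, 5.17 and 5.40. Every PlaB array of these lines lay below every vehicle array of the same line, and the gap was narrowest in TC32. RDES showed the same separation, with 6.43, 6.66 and 6.93 against 5.56, 5.86 and 5.61. Over all probes, the PlaB arrays were all lower for 30.6% in SKNMC, 24.9% in TC32, 26.6% in TC71 and 24.4% in RDES.

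The HSPA5 difference was -1.38 ± 0.14 in SKNMC (adjusted p = 1.2e-09), which is 2.61-fold lower. Over the alternative settings, leaving out single arrays aside, the SKNMC difference ran from -1.85 to -0.84. The HSPA5 difference was -0.996 ± 0.14 in RDES (adjusted p = 1.2e-06) and -0.86 ± 0.14 in TC71 (adjusted p = 8.4e-06). In TC32 it was -0.40 ± 0.14 (adjusted p = 0.023), and there the call was lost without PlaB replicate 2 (-0.36, adjusted p = 0.078), without PlaB replicate 3 (-0.34, adjusted p = 0.094) and without vehicle replicate 1 (-0.36, adjusted p = 0.082). The TC32 call was also lost when the signals were not background-corrected (-0.20, adjusted p = 0.053) and when dim probes were kept in the test (adjusted p = 0.070), while by the authors' log2 values the TC32 difference was -0.19 (adjusted p = 0.025). The mean of the lines was -0.91 ± 0.07 (adjusted p = 1.2e-12), and without background correction it was -0.51. HSPA5 was thus called down in all 4 lines, as were 8.52% of all tested probes.

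The same separation was present in the signals as deposited, before any correction. The SKNMC intensities of HSPA5 were 210, 205 and 268 with vehicle and 98.1, 104 and 107 with PlaB. In TC32 they were 133, 127 and 115 against 105, 90.4 and 91.1. The deposited signals did not overlap in either line.

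HSP90B1 encodes GRP94, the HSP90 of the ER, which folds integrins, toll-like receptors and insulin-like growth factors. The vehicle levels were 9.82, 10.08 and 10.15 in SKNMC against 9.34, 9.29 and 8.96 with PlaB. In RDES they were 10.48, 10.36 and 10.20 against 9.89, 10.01 and 9.90. In TC32 they were 9.53, 9.56 and 9.80 against 9.17, 9.27 and 9.33, and in both of these lines as in SKNMC the PlaB arrays were all lower. TC71 also had no overlap, with 9.39, 9.47 and 9.30 against 8.97, 8.90 and 8.95. The difference was -0.82 ± 0.11 in SKNMC (adjusted p = 3.4e-07), which is 1.77-fold lower. It was -0.45 ± 0.11 in TC71 (adjusted p = 0.0018), -0.41 ± 0.11 in RDES (adjusted p = 0.0041) and -0.37 ± 0.11 in TC32 (adjusted p = 0.0087). The TC32 call was lost without vehicle replicate 3 (-0.29, adjusted p = 0.068). HSP90B1 joined HSPA5 as the only other member called down in all 4 lines.

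CALR encodes calreticulin, the soluble lectin that retains glycoproteins for folding and buffers ER calcium. It stood at 8.33, 8.60 and 8.95 in vehicle-treated SKNMC and at 8.12, 8.29 and 8.25 with PlaB. The TC71 levels were 7.68, 7.59 and 7.77 against 6.96, 7.26 and 7.23. Those of RDES were 7.83, 7.60 and 7.80 against 7.31, 7.42 and 7.39. PlaB arrays were lower without overlap in these lines and in TC32, where the levels were 7.98, 7.99 and 7.82 against 7.70, 7.75 and 7.45. The deposited RDES intensities, 299, 243 and 274 with vehicle and 186, 205 and 247 with PlaB, overlapped, while those of the other lines did not. CALR fell in TC71 (-0.53 ± 0.13, adjusted p = 0.00091), SKNMC (-0.40 ± 0.13, adjusted p = 0.0078) and RDES (-0.37 ± 0.13, adjusted p = 0.020). In TC32 the difference was -0.30 ± 0.13 and just missed the threshold (adjusted p = 0.054), which it passed without PlaB replicate 2 (-0.36, adjusted p = 0.043), without vehicle replicate 3 (-0.36, adjusted p = 0.045) and under 8 other settings. The SKNMC call was lost without vehicle replicate 3 (-0.24, adjusted p = 0.11) and with centring on probes detected everywhere (-0.29, adjusted p = 0.058), and the RDES call without PlaB replicate 1 (-0.34, adjusted p = 0.067), vehicle replicate 1 (-0.33, adjusted p = 0.077) or vehicle replicate 3 (-0.34, adjusted p = 0.066). The mean over lines was -0.40 ± 0.06 (adjusted p = 1.7e-06).

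PDIA4 encodes ERp72, a disulfide isomerase found in complexes with BiP. It was dim and was detected on 23 of 24 arrays. In SKNMC it read 4.65, 4.83 and 5.02 with vehicle and 5.05, 5.37 and 5.27 with PlaB, which did not overlap. The SKNMC rise of 0.40 ± 0.12 (adjusted p = 0.0041) was 0.07 (adjusted p = 0.72) when arrays were centred on their median. The deposited SKNMC intensities, 82.9, 87.4 and 95.7 with vehicle and 87.5, 91.2 and 88.2 with PlaB, overlapped. In the other lines the difference was between -0.08 and 0.03, and none passed.

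DNAJB9 encodes ERdj4, an ER J-domain protein that steers BiP and is induced through XBP1. TC32 moved most, from 5.49, 5.55 and 5.75 with vehicle to 6.68, 6.41 and 6.46 with PlaB. In TC71 it went from 5.29, 5.31 and 5.41 to 6.23, 6.10 and 6.003. In SKNMC the levels were 5.56, 5.58 and 5.43 against 6.20, 5.92 and 6.14, so that PlaB arrays were higher without overlap in these lines. In RDES they were 5.69, 5.72 and 5.98 against 5.89, 6.51 and 6.11, which overlapped. Over all probes, the PlaB arrays were all higher for 25.7% in SKNMC, 21.8% in TC32 and 26.1% in TC71.

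The DNAJB9 rise was 0.92 ± 0.13 in TC32 (adjusted p = 7.3e-07), which is 1.89-fold, 0.77 ± 0.13 in TC71 (adjusted p = 9.7e-06) and 0.56 ± 0.13 in SKNMC (adjusted p = 0.00041). In RDES it was 0.37 ± 0.13 (adjusted p = 0.021). The mean of 0.66 ± 0.06 (adjusted p = 1.8e-10) was 0.34 without background correction, and the TC32 rise was then 0.50 and by the authors' log2 values 0.47 (adjusted p = 0.00012). DNAJB9 was called up in all 4 lines, as were 8.58% of all tested probes, and it was the only member so called. The RDES call was lost without PlaB replicate 2 (0.20, adjusted p = 0.23), vehicle replicate 1 (0.32, adjusted p = 0.092) or vehicle replicate 2 (0.33, adjusted p = 0.075), in a fit of that line alone (0.37, adjusted p = 0.066) and with 2 other scalings, median centring (0.22, adjusted p = 0.28) and centring on probes detected everywhere (0.31, adjusted p = 0.064). With median centring the SKNMC difference was 0.15 (adjusted p = 0.44). The deposited intensities were higher with PlaB on every array in TC32 (118 to 147 against 107 to 112) and TC71 (123 to 125 against 101 to 103), and overlapped in SKNMC (107 to 126 against 110 to 112) and RDES (104 to 135 against 110 to 120).

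XBP1 encodes the transcription factor made after IRE1 has spliced its mRNA. Its 2 probes are annotated to the unspliced and to the spliced transcript, but the files do not give their position against the spliced-out stretch, so XBP1 splicing was not measured. With the brighter probe, SKNMC read 7.21, 7.15 and 7.11 with vehicle and 6.30, 6.38 and 6.45 with PlaB. TC71 read 8.55, 8.75 and 8.82 against 8.25, 7.93 and 8.28. TC32 went the other way, from 8.12, 7.94 and 7.99 to 8.30, 8.37 and 8.45. None of these 3 lines had overlapping arrays, whereas RDES did, with 7.83, 7.84 and 7.67 against 7.50, 7.97 and 7.54.

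XBP1 fell by 0.78 in SKNMC (SE 0.12, adjusted p = 1.9e-06) and by 0.56 in TC71 (SE 0.12, adjusted p = 0.00031), and the RDES difference was -0.10 ± 0.12 (adjusted p = 0.55). In TC32 it rose by 0.36 ± 0.12 (adjusted p = 0.016). The other probe gave -0.37 ± 0.11 in SKNMC (adjusted p = 0.0038), -0.44 ± 0.11 in TC71 (adjusted p = 0.0010), -0.14 ± 0.11 in RDES (adjusted p = 0.32) and 0.21 ± 0.11 in TC32 (adjusted p = 0.12), where it was not called. The TC32 rise was also lost without PlaB replicate 3 (0.32, adjusted p = 0.062) or vehicle replicate 2 (0.32, adjusted p = 0.065), and it was 0.02 (adjusted p = 0.95) with median centring. In that line the deposited intensities were 363, 338 and 286 with vehicle and 347, 295 and 334 with PlaB, which overlapped. The mean over lines was -0.27 ± 0.06 (adjusted p = 0.00021) by the brighter probe and -0.18 ± 0.05 (adjusted p = 0.0028) by the other. XBP1 was the only member called up in 1 line and down in another, a pattern that 4.48% of all tested probes showed.

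ATF6 encodes the membrane-bound sensor whose cytosolic part is cut off in the Golgi and moves to the nucleus. In TC71 it read 6.81, 6.63 and 6.78 with vehicle and 7.08, 7.24 and 7.07 with PlaB, with no overlap. That rise of 0.39 ± 0.11 (adjusted p = 0.0039) was its only call. It became 0.16 (adjusted p = 0.42) with median centring, and the deposited intensities overlapped, at 193, 168 and 178 against 178, 205 and 201. The differences elsewhere were 0.17 ± 0.11 in TC32, 0.06 ± 0.11 in SKNMC and -0.20 ± 0.11 in RDES (adjusted p = 0.15). The mean of 0.10 ± 0.05 (adjusted p = 0.094) passed without RDES PlaB replicate 3 (0.13, adjusted p = 0.046) or SKNMC vehicle replicate 3 (0.13, adjusted p = 0.035), and with median centring it was -0.16 (adjusted p = 0.046).

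EDEM1 and SEL1L serve ER-associated degradation. EDEM1 encodes a mannosidase-like protein that marks glycoproteins for destruction, and its level in SKNMC was 5.56, 5.11 and 5.43 with vehicle and 5.89, 6.12 and 6.09 with PlaB. The PlaB arrays were all higher there, by 0.67 ± 0.12 (adjusted p = 3.2e-05), and the deposited intensities, 110, 95.01 and 110 against 111, 115 and 112, did not overlap either but stood close. With median centring the SKNMC difference was 0.26 (adjusted p = 0.10). In TC32, TC71 and RDES the differences were -0.15, -0.14 and 0.14, each with an SE of 0.12 and none called, while with median centring EDEM1 fell in TC32 (-0.52, adjusted p = 0.0019) and TC71 (-0.37, adjusted p = 0.024). The mean of the lines was 0.13 ± 0.06 (adjusted p = 0.064) and with median centring a called fall, -0.16 (adjusted p = 0.034), while leaving out any 1 of 7 arrays made it a called rise, at 0.15 each: SKNMC vehicle replicate 1 or PlaB replicate 1, TC71 vehicle replicate 2 or PlaB replicate 2, or RDES vehicle replicate 3, PlaB replicate 2 or PlaB replicate 3. SEL1L encodes the adaptor of the HRD1 ubiquitin ligase. It was detected on 6 of 24 arrays, 3 of them vehicle-treated TC71, and its differences of -0.10 to 0.08 passed in no line.

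**Figure D2:**
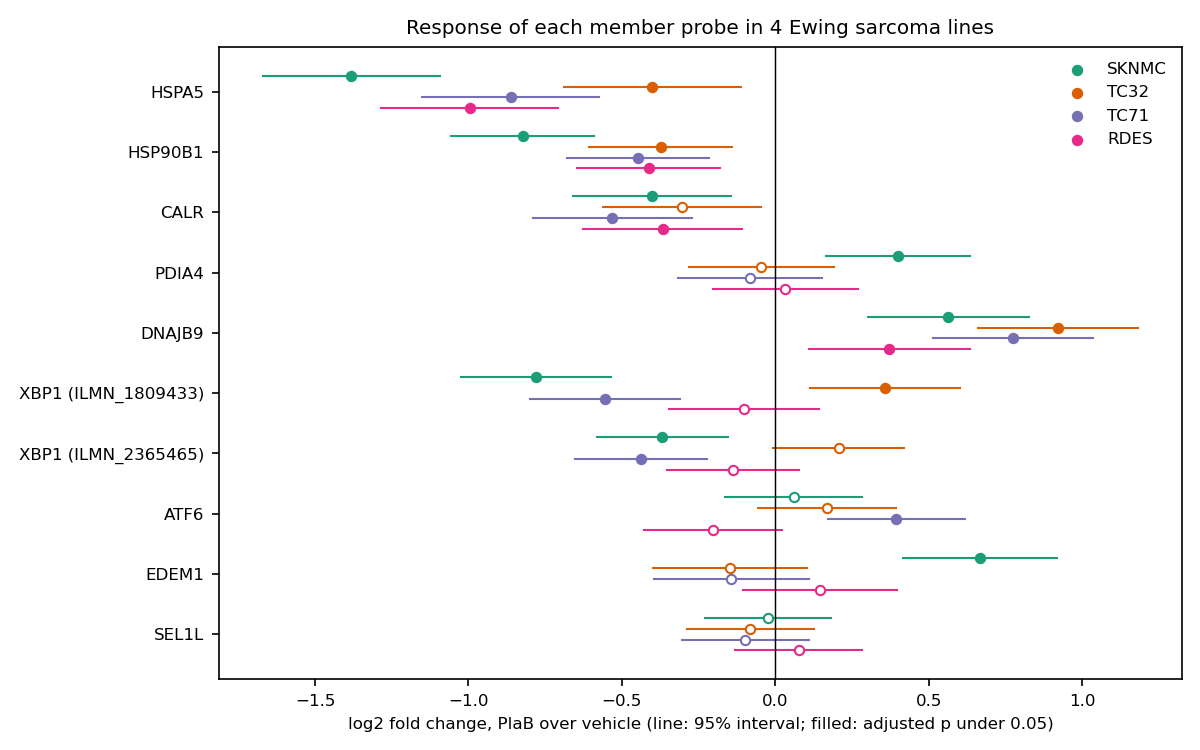
Log2 fold change of each member probe, PlaB over vehicle (x axis), in each line, where points are estimates, filled if called, and lines 95% intervals. HSPA5 ranges from -1.38 in SKNMC to -0.40 in TC32 and stays left of 0 in every line, DNAJB9 stays right of 0, and XBP1 crosses from -0.78 in SKNMC to 0.36 in TC32.

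Per line, 8 of the 10 member probes were called in SKNMC, 3 up and 5 down, where 52.9% of all tested probes were called, 24.9% up and 28% down. In TC71 the count was 7, 2 up and 5 down, against 43.7% of all probes, 21.4% up and 22.2% down. TC32 and RDES had 4 each, 2 up and 2 down in TC32 and 1 up and 3 down in RDES. Of all probes 41% were called in TC32, 19.3% up and 21.6% down, and 39.7% in RDES, 19.5% up and 20.2% down. The median member difference was -0.20 in SKNMC, -0.29 in TC71, -0.12 in RDES and -0.06 in TC32, where the medians of all probes were -0.02, -0.003, -0.002 and -0.02. With median centring the SKNMC count was 5, none of them up. That scaling made the falls larger, with -0.76 for HSPA5 and -0.79 for HSP90B1 in TC32, and mean differences of -0.61 for CALR and -0.52 for XBP1, and made the mean DNAJB9 rise smaller, at 0.36. Without vehicle replicate 1 the RDES count was 2, and without PlaB replicate 3 the TC32 count was 2.

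Whether the lines responded differently was tested by the interaction of line and treatment. It passed for 5 of the 10 member probes, against 42.4% of all tested probes, and those 5 belonged to HSPA5, XBP1, ATF6 and EDEM1. HSPA5 (adjusted p = 0.0022) fell more in SKNMC than in TC32, by a difference of -0.98 ± 0.20 (adjusted p = 0.00045), and its other 5 pairs of lines did not pass. For XBP1 (adjusted p = 1.6e-05) the SKNMC response differed from that of TC32 by -1.14 (adjusted p = 8.2e-06) and from that of RDES by -0.68 (adjusted p = 0.0036), and the TC32 response from that of TC71 by 0.91 (adjusted p = 0.00032). The other XBP1 probe (adjusted p = 0.0032) separated TC32 from SKNMC (-0.57 for SKNMC minus TC32, adjusted p = 0.0044) and from TC71 (0.64, adjusted p = 0.0029).

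EDEM1 (adjusted p = 0.00092) responded apart in SKNMC, whose response exceeded that of TC32 by 0.81 (adjusted p = 0.00076), that of TC71 by 0.81 (adjusted p = 0.00097) and that of RDES by 0.52 (adjusted p = 0.028). ATF6 (adjusted p = 0.018) differed between TC71 and RDES by 0.60 (adjusted p = 0.010). The interaction did not pass for HSP90B1 (adjusted p = 0.068), DNAJB9 (adjusted p = 0.060), PDIA4 (adjusted p = 0.053), CALR (adjusted p = 0.70) or SEL1L (adjusted p = 0.69). Single pairs did pass for the first 3 of these genes. They were SKNMC minus TC32 for HSP90B1 (-0.45, adjusted p = 0.036), TC32 minus RDES for DNAJB9 (0.55, adjusted p = 0.046), and SKNMC minus TC32 (0.45, adjusted p = 0.040) and SKNMC minus TC71 (0.48, adjusted p = 0.030) for PDIA4. Pairs were adjusted over probes but not over the pairs of lines. Where the interaction did not pass, a single pair does not establish that the lines differ. For CALR the pairwise differences of the responses lay between -0.16 and 0.23, each with an SE of 0.18, which leaves room for differences about as large as the CALR response itself.

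The lines also differed before treatment. The vehicle level differed between lines for 9 of the 10 member probes, PDIA4 being the exception (adjusted p = 0.11), where 73.4% of all tested probes differed. Among the 9 is SEL1L, which passed the detection filter only through vehicle-treated TC71, its highest vehicle group. Its difference between lines is therefore not independent of the filter. HSPA5 was highest in SKNMC, then RDES, TC71 and TC32, with a spread of 1.18 from highest to lowest, and only the neighbours TC71 and TC32 did not differ (adjusted p = 0.11). With PlaB the 4 HSPA5 means lay within 0.38 of each other. The deposited HSPA5 intensities with PlaB were 90.4 to 111, where the medians of all probes on the PlaB arrays were 71.5 to 75.5. The part of this dimness in the narrow spread was not tested. The vehicle arrays enter both the starting level and the response, so those values are not independent of one another.

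HSP90B1 was highest in RDES, followed by SKNMC, TC32 and TC71, with a spread of 0.96 with vehicle and 0.99 with PlaB, and TC32 and TC71 did not differ beyond their spread (adjusted p = 0.084). CALR was highest in SKNMC, and TC32, RDES and TC71 did not differ from one another. XBP1 ran in another order, TC71, TC32, RDES and SKNMC, with a spread of 1.55 by the brighter probe and 1.74 by the other, and TC32 and RDES were the neighbours that did not differ (adjusted p = 0.10). SKNMC thus had the highest vehicle level of HSPA5 and CALR and the lowest of XBP1. With PlaB the spread of XBP1 was 2.00 by the brighter probe and 1.67 by the other. For DNAJB9, TC71 and RDES were the only pair of lines that differed (-0.46, adjusted p = 0.0034).

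The genes most like HSPA5 and XBP1 across the 24 arrays were sought by Pearson correlation of the log2 level among 6226 genes. Those closest to HSPA5 were MAGED1 (r = 0.906), CYBC1 (r = 0.900) and APCDD1 (r = 0.898), whose mean differences were -1.14, -0.49 and -1.69. Those closest to XBP1 were HPS6 (r = 0.937), CUTC (r = 0.933) and MRPS34 (r = 0.930). The arrays share line and treatment, so these correlations describe the 8 groups more than single samples.

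Around the members, the rest of the ER pathway was read from lists of genes, 1 probe per gene, with the 2 called genes that rose and fell most named in each. Of all 10882 genes tested, 32.3% rose and 37.9% fell in the mean of the lines, with a median of -0.03. Among 20 other ER chaperones and co-chaperones, 15 fell, 3 rose and 2 were not called, with a median of -0.35. MANF, a secreted stabiliser of BiP complexes, fell by 1.27 (SE 0.05, adjusted p = 2.7e-19), and its difference was -1.98 in SKNMC, -0.94 in TC32, -1.17 in TC71 and -0.99 in RDES. CRELD2, an ER protein induced by stress, had -1.53, -1.05, -1.08 and -0.92 in the same order, and its mean was -1.14 ± 0.06. SDF2 (0.62 ± 0.05) and DNAJC3 (0.55 ± 0.09), which both work with BiP, rose. FKBP14, also counted as risen (0.31), had another probe at -0.54. FKBP2, counted as fallen (-0.33), had other probes at 0.19 and -0.04. In single lines the list had 8 to 11 genes down and 1 to 3 up. Of all genes, 22.5% (RDES) to 31.4% (SKNMC) fell and 21.4% (RDES) to 26.3% (SKNMC) rose in single lines.

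Of 16 other disulfide isomerases and ER oxidases, 10 fell, 2 rose and 4 were not called, with a median of -0.17. PDIA5 (-0.90 ± 0.06) and PDIA6 (-0.64 ± 0.07), which form and rearrange disulfide bonds, fell, and ERP44 (0.37 ± 0.08) and TXNDC11 (0.27 ± 0.06) rose. The oligosaccharyltransferase and the glucosidases of the calnexin cycle, which attach and trim N-glycans, had 7 of 13 genes down, 3 up and a median of -0.20. There TUSC3 (-0.69 ± 0.07) and the glucosidase subunit GANAB (-0.68 ± 0.06) fell, while MAGT1, the alternative subunit to TUSC3, rose by 1.15 ± 0.07 and OSTC by 0.22 ± 0.07. Both MAGT1 and TUSC3 were called in each of the 4 lines, MAGT1 up and TUSC3 down.

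In the degradation machinery 12 of 29 genes rose and 11 fell, with a median of 0.03. UFD1, a partner of the VCP segregase, rose by 1.23 ± 0.08, and DERL2, a channel component, by 0.98 ± 0.05, but their other probes gave 0.44 and -0.07. UBE2J1, the ubiquitin-conjugating enzyme of the HRD1 complex, fell by 1.17 (SE 0.08) and ERLIN2 by 0.93 (SE 0.06). In the translocon and signal peptidase list 8 of 24 genes fell and 6 rose, with a median of 0.04. SRP9 (-0.95 ± 0.07) and SSR1 (-0.91 ± 0.06) fell, and SEC61A2 (0.60 ± 0.07) and SRPRB (0.37 ± 0.06) rose. Both medians turned negative with median centring, to -0.17 and -0.19, and the second was -0.002 after cyclic loess.

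Of 18 further sensors, transducers and their proteases, 13 were measured, and ERN1 (IRE1) and EIF2AK3 (PERK) were among the 5 whose probes did not pass the filter. Here 6 rose, 4 fell and the median was 0.09, or -0.03 with median centring. TMBIM6, a membrane protein that restrains IRE1 (0.72 ± 0.06), and NFYC, a subunit of the CCAAT-binding factor NF-Y (0.59 ± 0.07), rose. CREB3L2, a relative of ATF6 (-1.08 ± 0.06), and MBTPS2, the protease that releases ATF6 (-0.46 ± 0.07), fell. In the PERK-ATF4-CHOP arm 8 of 9 genes rose and none fell, with a median of 0.71, and the transcription factor gene ATF3 (1.66 ± 0.06) and PPP1R15A (1.52 ± 0.06), whose product restores translation, rose most. That median was 0.28 without background correction and 0.35 with an offset of 50, median centring gave 6 up and 1 down, and in SKNMC alone 6 rose and 1, DDIT4 (-0.33), fell. Of all genes, 26.3% rose and 31.4% fell in SKNMC. ATF4 was counted as risen by its brightest probe (0.85), while its 2 other probes gave -0.02 and 0.18. A list of chaperones outside the ER, cytosolic but for the mitochondrial HSPD1 and HSPE1, had 8 of 13 genes up and 3 down, with a median of 0.26 (0.13 with median centring), BAG3 (0.99 ± 0.06) and DNAJB6 (0.91 ± 0.06) having risen most and HSPE1 (-0.32 ± 0.07) and HSPA4 (-0.30 ± 0.07) having fallen most. By direction, the ER chaperone list and the PERK-ATF4-CHOP list thus lay on opposite sides of the median of all genes. The members HSPA5, HSP90B1 and CALR lay on the side of the former, and the co-chaperone member DNAJB9 (0.66) on that of the latter. PDIA4 (0.08) was not called.

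**Figure D3:**
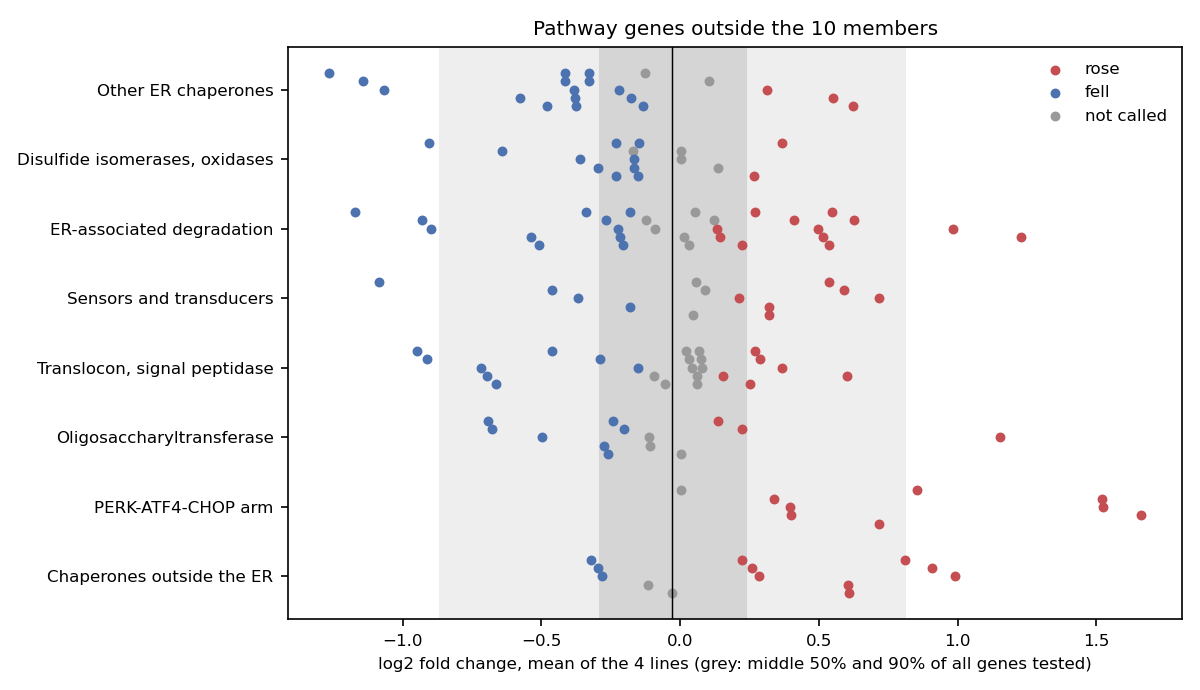
Log2 fold change in the mean of the 4 lines (x axis) of each measured gene of 8 lists (y axis), coloured by call, over grey bands for the middle 50% and 90% of 10882 genes. Of 20 other ER chaperones 15 lie among the genes that fell, and of 9 genes of the PERK-ATF4-CHOP arm 8 lie among those that rose.

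The elements printed above were then set beside the response of every gene that carries one. Of 14 tested genes with an ERSE, 11 fell, 1 rose and 2 were not called, so 78.6% fell against 37.9% of all genes, and the median was -0.46. The members HSPA5, HSP90B1, CALR and XBP1 are 4 of those 14. Among the other 10, 7 fell, namely CRELD2, TRIM5 (-0.70), SERP1 (-0.67), PDIA6, TMEM120A (-0.54), CANX (-0.38), the membrane-bound partner of calreticulin, and ZNF17 (-0.34). Of these, CRELD2, PDIA6 and CANX were already counted as fallen in the ER lists above. EIF2A rose by 0.51, ALG12 (-0.07) and FICD (-0.04) were not called, and the median of these 10 was also -0.46. Of 11 tested genes with an ERSE-II, 5 fell (45.5%) and 4 rose (36.4%), near the 37.9% and 32.3% of all genes. Those that fell were RUVBL2 (-0.87), NUCB1 (-0.62), SETD3 (-0.54) and the ER chaperones SDF2L1 (-0.48) and HYOU1 (-0.42). Those that rose were ZNF143 (1.09), RAD9A (0.79), SHCBP1 (0.35) and CAMTA1 (0.23). Of 102 tested genes with a UPRE, 54 fell (52.9%) and 26 rose (25.5%), with a median of -0.18. DNAJB9, which rose in all 4 lines, has no exact match to the 3 motifs in its window. The same holds for PDIA4, ATF6, EDEM1 and SEL1L, which were not called in the mean of the lines. Among the members with an ERSE, XBP1 in TC32 was the only called rise. XBP1 in RDES (adjusted p = 0.55) and CALR in TC32 (adjusted p = 0.054) were not called. Whether the motifs have a part in these responses was not tested. A motif match is not a measured binding site, and binding was not assayed here. Only exact matches were searched, so a window without a match may still hold a variant of an element.

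**Figure D4:**
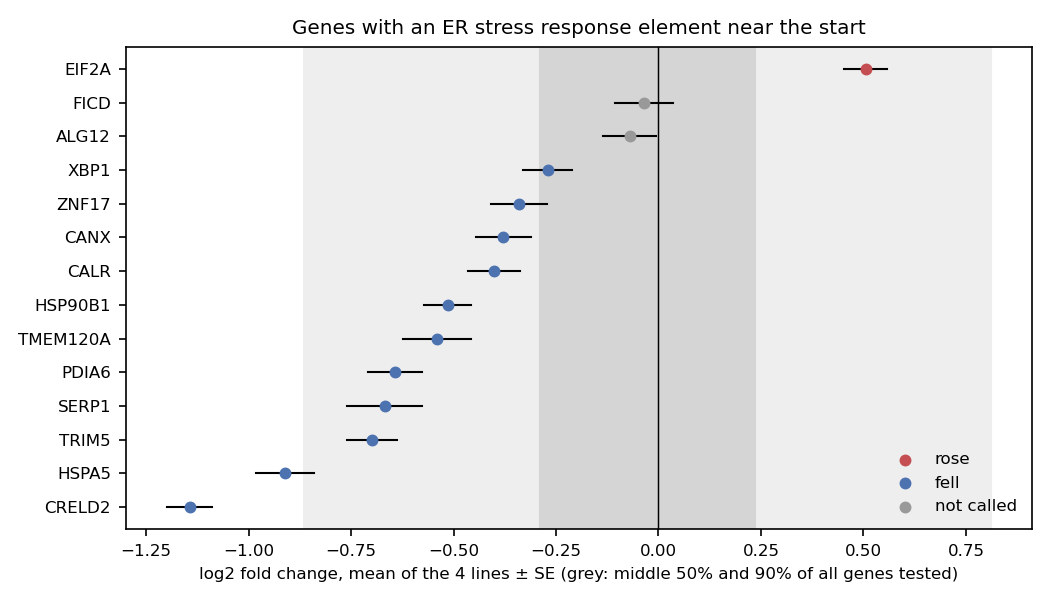
Log2 fold change in the mean of the 4 lines ± SE (x axis) of the 14 tested genes with an ERSE in the promoter window (y axis), coloured by call, over grey bands for the middle 50% and 90% of all genes. From CRELD2 at -1.14 to XBP1 at -0.27 there are 11 genes that fell, and EIF2A at 0.51 is the one that rose.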

How the data were processed

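Total RNA of 24 samples was hybridised to Illumina beadchips. The deposited table holds, per the file headers, non-normalized probe intensity values and a detection p-value per probe and array. The deposited series matrix holds log2 values. GenomeStudio, lumi and R 3.0.2 are named, with no role, in the submitters' processing notes, and no chip or batch is given in the sources used here. The series-matrix values were compared with log2 intensities quantile-normalized within each line, without background correction. They lay within 0.03 of these for 99.996% of probes in TC32 but for 36.4% to 75.2% in the other lines. They were therefore used for TC32 alone, as an alternative that comes close to the setting without background correction.

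The neqc method of limma 3.58.1 (R 4.3.3) took the background from detection p-values, added an offset of 16 and quantile-normalized the arrays. A probe was tested, as were 17557 of 47323, if some group of the 8 had a detection p under 0.05 on its 3 arrays. A group-means model was fitted to 24 arrays (16 residual and 13.7 prior degrees of freedom), with two-sided tests and Benjamini-Hochberg adjustment over all tested probes, separately for each contrast. Of all probes, 30112 had 1 gene symbol, 8 several and 17203 none. A gene was read from its brightest tested probe. The other probes of list genes are given for some genes only. All member probes are named, and per list (8 lists) the called genes with the 2 highest and the 2 lowest differences. Members, lists and motifs were chosen with earlier results of these data known. Alternatives were the offset, the background correction, 4 other normalizations, 2 other filters, a replicate block, single-line fits, the authors' values and leaving out each array. The number of arrays limits the precision. On simulated data with 17557 probes, single-line fits recovered 48 to 59 of 100 changes of 0.5 log2 and 98 to 100 of 100 changes of 1. No other simulated probe changed, whereas 39.7% to 52.9% of probes were called per line in the data. The adjusted threshold was therefore stricter in the simulation, and its recovery does not give the share of changes missed here.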

Additional observations from a re-analysis of the deposited data

Results flagged for a closer look

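The response to PlaB differed between the 4 lines, by the interaction test, for 5 of the 10 member probes, near the 42.4% of all tested probes. The adjusted p was 0.0022 for HSPA5, whose differences ran from -1.38 in SKNMC to -0.40 in TC32. It was 1.6e-05 for the brighter XBP1 probe, which rose in TC32 and fell in SKNMC and TC71, and 0.0032 for the other. It was 0.018 for ATF6, which was called, upward, in TC71 only, and 0.00092 for EDEM1, which was called, upward, in SKNMC only. With median centring these upward calls of ATF6 (adjusted p = 0.42) and EDEM1 (adjusted p = 0.10) were lost.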

How the results depend on the processing

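Of 877 recomputed gene values, 813 kept their direction and their side of the threshold, 25 lost a call, 21 gained one and 18 changed sign. Median centring moved the median of all probes to -0.14 and the share of falling calls from 52.9% to 74.1%, while using the probes detected everywhere as the centre moved them to 0.07 and 42.5%. The choice of scaling cannot be settled from these arrays, so differences are relative to it. With median centring the SKNMC member count went from 8 to 5. ATF6 became -0.16 in the mean, -0.30 in SKNMC and -0.20 in TC32, EDEM1 -0.16 in the mean, a called fall, and -0.0135 in RDES, and PDIA4 -0.0843 in the mean and -0.0769 in RDES. With centring on detected probes PDIA4 in TC32 became 0.19 (0.11 with cyclic loess), and SEL1L 0.16 in the mean (adjusted p = 0.026), 0.25 in SKNMC and 0.24 in TC32. Leaving out single arrays gave member counts of 2 to 4 in RDES and 2 to 5 in TC32, and values of -0.0493 to 0.16 for ATF6 in SKNMC, -0.0639 to 0.14 for PDIA4 in RDES, -0.0857 to 0.02 for PDIA4 in TC32 and -0.0833 to 0.0506 for SEL1L in SKNMC. The median over ERSE genes stayed between -0.68 and -0.28 over 7 scalings, and that of the other ER chaperones between -0.57 and -0.19. Same-numbered arrays did not deviate together (r = -0.04 to 0.05 over 12 pairs). The replicate block gave 8 member calls in SKNMC, 5 in TC32, 7 in TC71, 4 in RDES and 6 in the mean, and added CALR in TC32 (-0.30, adjusted p = 0.045). Without background correction differences of dim probes shrank, HSPA5 to -0.51 in the mean. The cause of these changes was not tested.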
